A study of Mus musculus with 8 samples.

Results

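The genes described here encode receptors through which myeloid growth factors and interleukins act on blood cells. They are Csf2ra (ENSMUSG00000059326), Csf2rb (ENSMUSG00000071713), Csf2rb2 (ENSMUSG00000071714), Csf3r (ENSMUSG00000028859), Csf1r (ENSMUSG00000024621), Il3ra (ENSMUSG00000068758), Il5ra (ENSMUSG00000005364), Il6ra (ENSMUSG00000027947) and Il6st (ENSMUSG00000021756). They were chosen by name and are 9 of the 37991 genes in the count table. All 9 were found there. In the mRNA libraries all 9 passed the filter on low counts, and in the total RNA libraries 8 did, Il5ra being the exception.

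Most of these receptors have no kinase of their own and signal by joining chains that carry one. GM-CSF, IL-3 and IL-5 are each bound by a private alpha chain, and the signal passes through a shared beta chain, on which JAK2 sits and activates STAT5. IL-6 is bound by its own alpha chain, which joins the signal transducer gp130, a chain also used by several other cytokines. The G-CSF receptor pairs with itself and drives neutrophil production, while the M-CSF receptor is a receptor tyrosine kinase of monocytes and macrophages. In the bone marrow, low levels of such transcripts are found in immature cells, and several rise as cells enter the granulocyte and monocyte lineages.

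RNA was sequenced from Flt3- LSK cells of C57BL/6J mouse bone marrow, a sorted fraction enriched for stem cells and early progenitors of the blood, with 24000 cells per sample. The groups were 2 samples labelled Mut, described as Runx1 deficient, and 2 samples labelled WT, which carried floxed Runx1. The sources used here give no Cre driver, no age of the mice and no number of animals per sample. From each sample there was 1 library of polyA-selected RNA (mRNA library) and 1 of total RNA, and synthetic ERCC transcripts had been added to the RNA of all samples. Runx1 is a DNA-binding factor needed to form blood, and the comparison of the groups is the one named in the design text of the series.

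Before the receptor genes, the samples themselves need a few facts. Gene counts were 35096252 and 37311315 in Mut-labelled mRNA libraries and 37441941 and 37924699 in WT mRNA libraries, and only 967694 to 1218437 in the total RNA libraries, where rRNA took 93.3 to 94.5% of all counts. Runx1 itself stood at 749 and 941 CPM (read counts scaled by TMM to a common library size) in the mRNA libraries labelled Mut, against 200 and 207 CPM in WT (log2 fold change 2.05, edgeR adjusted p = 0.00753). This goes against the label. Reads were counted over the gene as a whole, which leaves a deletion of part of it unchecked, and every direction given here rests on the labels. Of the sort markers, Kit had 953 and 1099 CPM in Mut-labelled and 890 and 883 CPM in WT mRNA libraries, Ly6a (Sca-1) had 32.5 and 26.0 against 23.7 and 38.5 CPM, and Flt3 transcripts were present at 57.3 and 87.5 against 117 and 155 CPM. None of the 3 sort markers was called by edgeR, while 1 of them, Flt3, was called lower by DESeq2 and was the 1 marker with an unadjusted edgeR p below 0.05. Of all 17128 genes tested in mRNA libraries, 2682 had such a p.

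The receptor genes fell into those that rose and those for which edgeR called no change. In the libraries labelled Mut the shared beta chain Csf2rb, its near copy Csf2rb2 and the G-CSF receptor Csf3r rose, in mRNA and in total RNA libraries alike. No receptor gene fell by edgeR or by DESeq2. The alpha chain Csf2ra and the gp130 gene Il6st had log2 fold changes of -0.19 and 0.02 in mRNA libraries, and Csf1r, Il6ra and Il3ra stood higher without passing edgeR's test. Against the 3 of 9 receptor genes called higher in mRNA libraries, 1.75% of all 17128 tested genes were called higher there and 1.89% lower. In total RNA libraries 3 of 8 were called higher, against 2.55% of 10546 genes, and 1.68% of those genes were called lower. These shares are those of edgeR. By DESeq2, 751 of the 17128 genes were called higher and 864 lower in mRNA libraries. Of the 10546 genes in total RNA libraries it called 141 higher and 62 lower. The median log2 fold change was 0.71 over the 9 receptor genes and -0.01 over all genes tested in mRNA libraries, and 0.70 over 8 and -0.00 over all genes in total RNA libraries.

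Each change is measured against the rest of the library. ERCC counts were 0.891 and 0.381% of gene counts in Mut-labelled mRNA libraries, against 0.651 and 0.313% in WT. In total RNA libraries they were 0.772 and 1.36% against 0.414 and 0.564%. Mut-labelled replicate 1 thus had the higher share in mRNA and the lower in total RNA libraries. The shares differed between replicates of 1 group, and scaling by them carries that spread. When libraries were scaled to their ERCC counts, the median of all genes moved to -0.38 in mRNA and -1.10 in total RNA libraries and none of the receptor genes was called by edgeR. Over all genes edgeR then called 16 higher and 154 lower in mRNA libraries, against 300 higher and 324 lower under TMM scaling. In total RNA libraries it called 13 higher and 360 lower, against 269 higher and 177 lower under TMM scaling. The median over the 8 receptor genes tested there turned to -0.40 under ERCC scaling, with 3 of 8 above 0. Under ERCC scaling Csf2rb, Csf2rb2 and Csf3r had log2 fold changes of 1.28, 1.97 and 0.68 in mRNA libraries (edgeR adjusted p = 0.999 for each). In total RNA libraries they had 0.77, 1.03 and -0.20 (edgeR adjusted p = 0.252, 0.170 and 0.751), so that Csf3r turned its direction there. In these bulk samples more cells that carry a transcript and more of it per cell cannot be told apart.

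**Figure D1:**
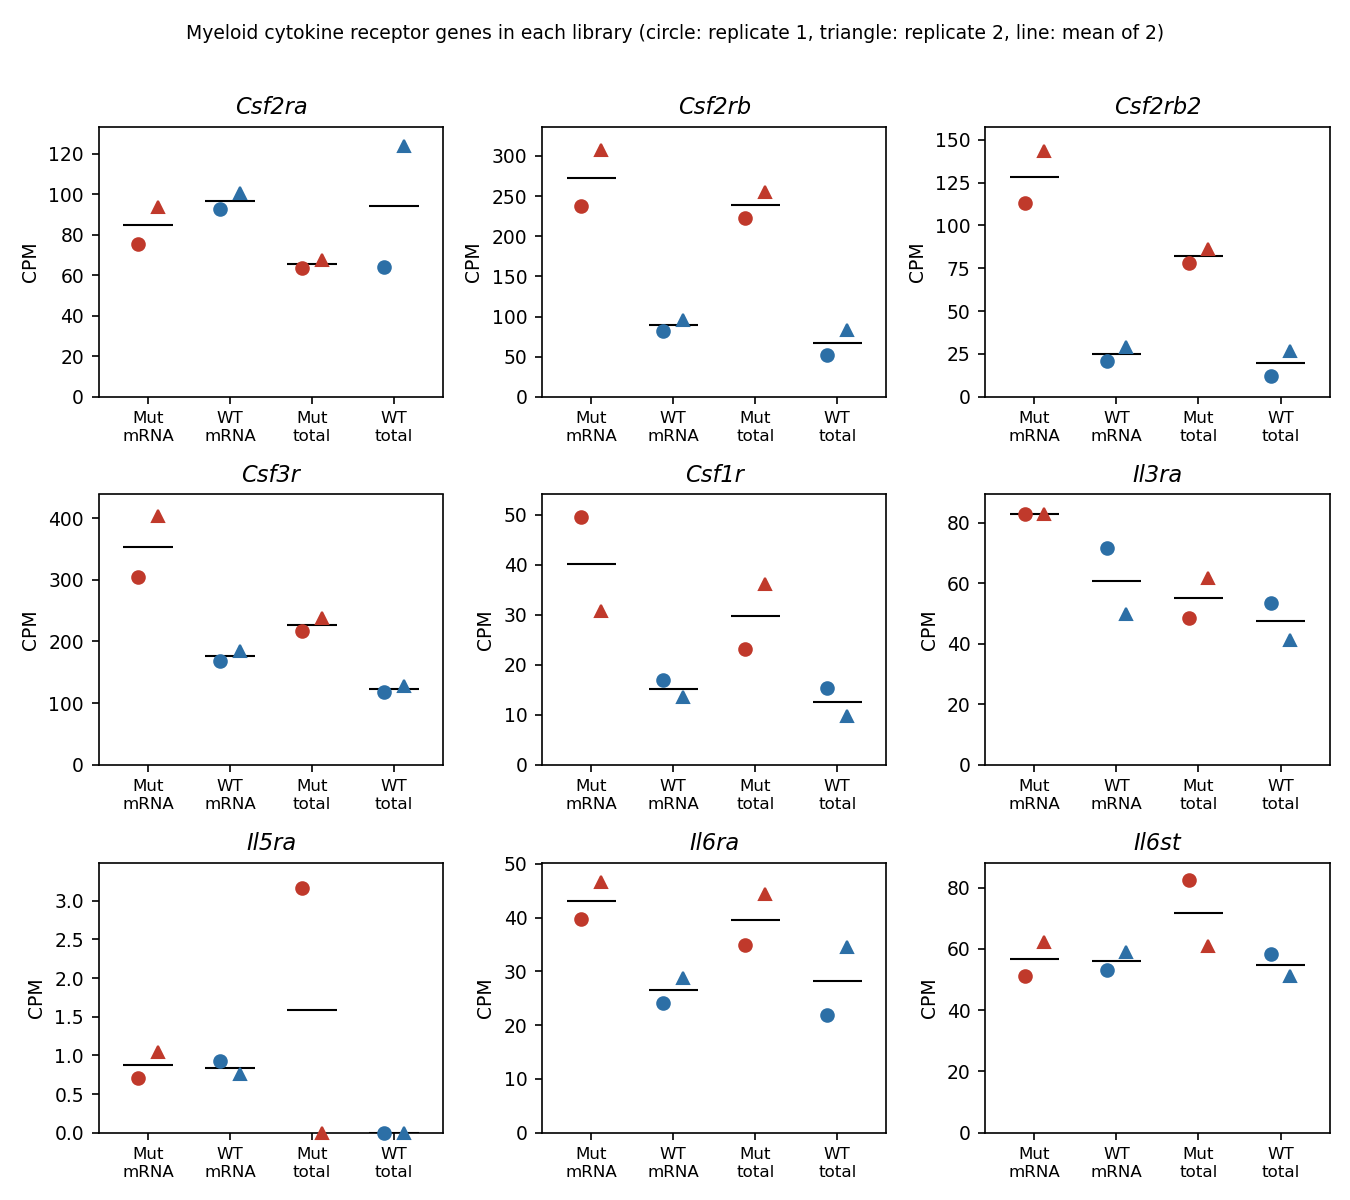
Level of each receptor gene in every library, in CPM (read counts scaled by TMM to a common library size, y axis from 0), with Mut-labelled libraries in red left of WT libraries in blue, circles for replicate 1, triangles for replicate 2 and a line at the mean of 2. For Csf2rb, Csf2rb2 and Csf3r both red points lie above both blue points in either kind of library, while for Csf2ra and Il5ra the groups overlap in both kinds.

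The 2 beta chains lie next to each other on chromosome 15 and are nearly identical in their coding bases. Csf2rb encodes the common beta chain of the receptors for GM-CSF, IL-3 and IL-5. Csf2rb2, found in mice, encodes a beta chain that works with the IL-3 receptor alpha chain only. Aligned over 2631 coding bases of the GENCODE M21 transcripts, the pair shared 2505, or 95.2%. A stretch of 120 coding bases of each, from base 19 to base 138 of the coding sequence, is shown because a read there can be told apart only where it covers a base that differs. Capitals mark the 6 bases that differ.
Csf2rb: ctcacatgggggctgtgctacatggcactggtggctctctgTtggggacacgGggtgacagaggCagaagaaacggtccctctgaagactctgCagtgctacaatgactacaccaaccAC
Csf2rb2: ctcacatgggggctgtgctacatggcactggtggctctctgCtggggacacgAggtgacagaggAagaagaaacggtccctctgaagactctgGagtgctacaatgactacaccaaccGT
Of all stretches of 50 bases in the transcripts of Csf2rb, 12.3% also occurred in Csf2rb2, and 18.4% of those of Csf2rb2 occurred in Csf2rb. At 100 bases these shares were 4.63% and 6.82%. The sources used here do not say how reads that match both genes were counted, and the split between the pair is therefore uncertain.

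Csf2rb stood at 238 and 308 CPM in mRNA libraries of Mut-labelled samples, against 82.4 and 95.3 CPM in those of WT. Both Mut-labelled libraries lay far above both WT libraries, with means of 273 ± 49.2 CPM in Mut-labelled and 88.8 ± 9.12 CPM in WT libraries (SD, n = 2 each). That is 3.07-fold, a log2 fold change of 1.62 (95% interval 1.19 to 2.06, edgeR adjusted p = 0.0125). Without polyA selection Csf2rb had 223 and 255 CPM in Mut-labelled and 51.6 and 82.7 CPM in WT libraries, again without overlap. The log2 fold change there was 1.84 (95% interval 1.41 to 2.27, edgeR adjusted p = 1.1e-05).

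Csf2rb2 had the highest fold change of the receptor genes tested in either kind of library. It had 113 and 144 CPM in mRNA libraries of Mut-labelled samples and 21.0 and 29.3 CPM in those of WT. Its total RNA values were 78.2 and 86.3 CPM in Mut-labelled samples against 12.4 and 26.6 CPM in WT. The lowest Mut-labelled value was thus well above the highest WT value in each kind. The log2 fold change was 2.35 (95% interval 1.82 to 2.89, edgeR adjusted p = 0.00810) in mRNA libraries, or 5.11-fold, and 2.08 (95% interval 1.44 to 2.73, edgeR adjusted p = 0.000283) in total RNA libraries. With the counts of the pair summed, so that reads of either gene count alike, the log2 fold change was 1.82 for mRNA (edgeR adjusted p = 0.0105) and 1.89 for total RNA (edgeR adjusted p = 7.4e-06).

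Within a library, Csf2rb2 took 32.2% (95% interval 31.4 to 33.1) and 31.8% (31.1 to 32.5) of the counts of the pair in the Mut-labelled mRNA libraries, and 20.4% (19.1 to 21.6) and 23.5% (22.3 to 24.7) in the WT mRNA libraries. The exact Clopper-Pearson intervals cover counting error only, and those of the Mut-labelled libraries did not reach those of the WT libraries. The intervals of the WT mRNA libraries (19.1 to 21.6 and 22.3 to 24.7) did not reach each other either. Such gaps therefore do not measure a difference between groups, which was not tested for the share. In the shallower total RNA libraries the shares were 26.0% (21.0 to 31.5) and 25.3% (21.2 to 29.8) in Mut-labelled and 19.4% (10.8 to 30.9) and 24.3% (16.7 to 33.4) in WT libraries. There the intervals of the groups overlapped, and a difference in the share was not shown. The Mut-labelled shares also stood lower than in mRNA libraries. Whether depth or the kind of library lies behind this was not tested.

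For the private alpha chains edgeR called no change with all libraries in the fit and no replicate block. Csf2ra, which binds GM-CSF, had 75.3 and 93.9 CPM in Mut-labelled and 92.7 and 101 CPM in WT mRNA libraries. The groups overlapped, and the log2 fold change was -0.19 (95% interval -0.57 to 0.18, edgeR adjusted p = 0.679). Its total RNA libraries held 63.4 and 67.4 CPM in Mut-labelled and 64.0 and 124 CPM in WT libraries, where WT replicate 2 stood apart from the other 3. The log2 fold change of -0.52 there (edgeR adjusted p = 0.367) became 0.03 without WT replicate 2 and -0.92 without WT replicate 1 (edgeR adjusted p = 0.0088).

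Il3ra, the alpha chain for IL-3, had 82.7 and 83.0 CPM in Mut-labelled mRNA libraries and 71.7 and 49.9 CPM in WT mRNA libraries. Both Mut-labelled values lay above the WT values, but the WT values were far apart and the log2 fold change of 0.45 did not pass (95% interval -0.03 to 0.92, edgeR adjusted p = 0.355). With the replicate number as a block it was called higher (log2 fold change 0.47, edgeR adjusted p = 0.0122). The groups overlapped in total RNA libraries, with 48.6 and 61.6 CPM in Mut-labelled and 53.5 and 41.3 CPM in WT libraries (log2 fold change 0.23, edgeR adjusted p = 0.780). Il5ra, which binds the eosinophil factor IL-5, was near the floor. It had 25 and 38 counts in the Mut-labelled mRNA libraries and 35 and 29 counts in the WT mRNA libraries, or 0.71 and 1.04 against 0.92 and 0.76 CPM (log2 fold change 0.06, 95% interval -1.44 to 1.57, edgeR adjusted p = 0.984). Total RNA libraries held 3 and 0 counts of Il5ra in Mut-labelled samples and 0 in both WT samples, and no fold is given.

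Taking length into account, the beta chain Csf2rb was present at 1.19 and 1.24 times the level of Csf2ra per kilobase of transcript in the Mut-labelled mRNA libraries, against 0.335 and 0.357 times in WT. The ratio in total RNA libraries was 1.33 and 1.43 in Mut-labelled and 0.304 and 0.252 in WT libraries. The beta chain thus exceeded the alpha chain in all 4 Mut-labelled libraries and stayed below it in all 4 WT libraries. This rests on the transcript lengths used and on Csf2rb counts whose split from Csf2rb2 is uncertain. Against Il3ra the same ratio was 1.36 and 1.75 in Mut-labelled and 0.543 and 0.901 in WT mRNA libraries, on the same 2 sides of equality. An exact two-sided permutation test of 2 against 2 libraries cannot give a p below 0.333, which is the value for each of these ratios within a kind of library. The ratios need no scaling between libraries, since both genes are read in the same one.

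**Figure D2:**
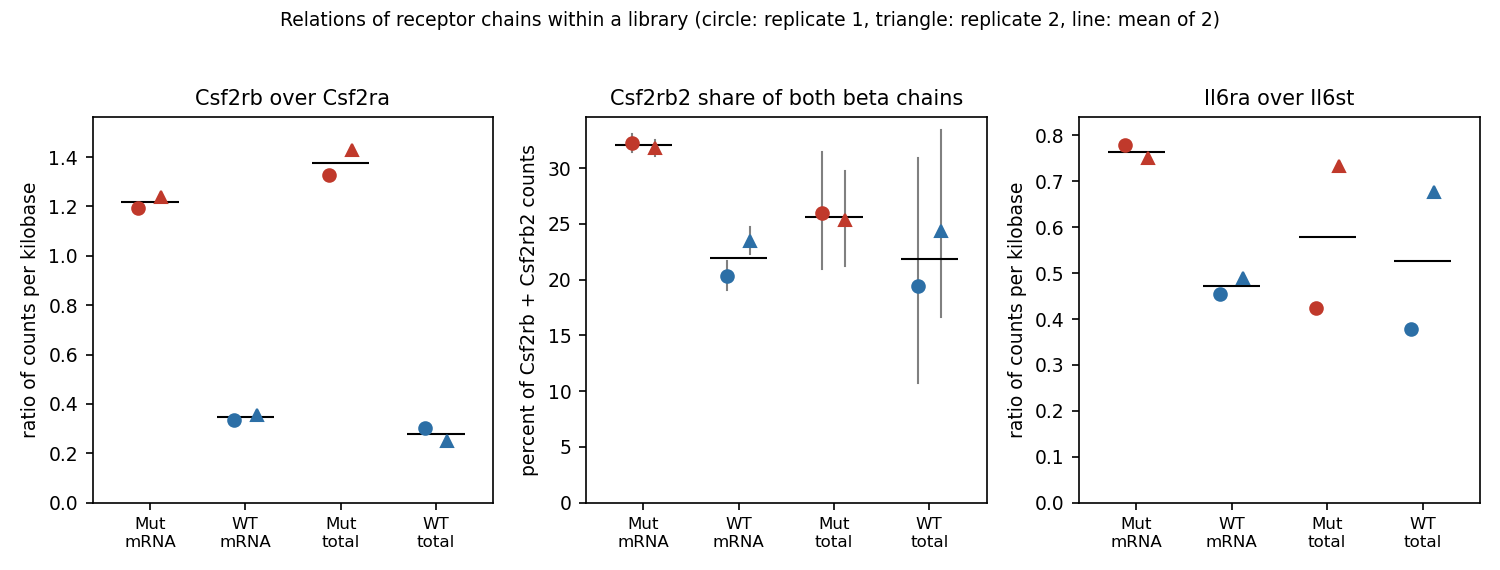
Relations of receptor chains within each library, with Mut-labelled libraries in red left of WT libraries in blue, circles for replicate 1, triangles for replicate 2 and a line at the mean of 2. The panels give the ratio of Csf2rb to Csf2ra per kilobase of transcript, Csf2rb2 as a percent of the counts of both beta chains (bars: exact 95% intervals), and the ratio of Il6ra to Il6st per kilobase. The first ratio was at least 1.19 in Mut-labelled and at most 0.357 in WT libraries, while the last overlapped between groups in total RNA libraries.

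Csf3r encodes the G-CSF receptor, which drives neutrophil production. It had 305 and 403 CPM in Mut-labelled mRNA libraries and 169 and 185 CPM in WT mRNA libraries, with means of 354 ± 69.8 and 177 ± 11.8 CPM (SD, n = 2 each). The groups did not overlap and the rise was 2.0-fold, a log2 fold change of 1.0 (95% interval 0.56 to 1.44, edgeR adjusted p = 0.0456). Its total RNA values were 217 and 238 CPM in Mut-labelled and 117 and 127 CPM in WT libraries (log2 fold change 0.90, 95% interval 0.55 to 1.25, edgeR adjusted p = 0.00214). The call in mRNA libraries was lost without Mut-labelled replicate 2 (log2 fold change 0.79, edgeR adjusted p = 0.0704), without WT replicate 1 (0.93, adjusted p = 0.173) and without WT replicate 2 (1.09, adjusted p = 0.0866), while that in total RNA libraries held whichever library was left out.

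Csf1r, the M-CSF receptor gene of the monocyte lineage, had 49.5 and 30.7 CPM in Mut-labelled mRNA libraries and 17.0 and 13.5 CPM in WT mRNA libraries. No value overlapped, but the Mut-labelled libraries were far apart, and the log2 fold change of 1.40 did not pass (95% interval 0.70 to 2.09, edgeR adjusted p = 0.0643). Total RNA libraries held 23.2 and 36.2 CPM in Mut-labelled and 15.3 and 9.84 CPM in WT libraries (log2 fold change 1.25, 95% interval 0.42 to 2.10, edgeR adjusted p = 0.0965). Mut-labelled replicate 1 was the higher one in mRNA and the lower one in total RNA libraries, although both libraries were read as made from 1 sorted sample. DESeq2 called Csf1r in mRNA libraries (adjusted p = 4.9e-05), as did edgeR without the filter on low counts (adjusted p = 0.0455), with Mut-labelled replicate 2 left out (0.0245) or WT replicate 1 left out (0.0402).

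For IL-6, the alpha chain stood higher in Mut-labelled libraries without a call by edgeR, and the shared chain overlapped between groups in mRNA libraries. Il6ra had 39.6 and 46.6 CPM in Mut-labelled mRNA libraries and 24.1 and 28.8 CPM in WT mRNA libraries, without overlap (log2 fold change 0.71, 95% interval 0.26 to 1.15, edgeR adjusted p = 0.117, DESeq2 adjusted p = 0.0161). Its total RNA values were 34.9 and 44.4 CPM in Mut-labelled and 22.0 and 34.4 CPM in WT libraries, where the lowest Mut-labelled and the highest WT value nearly met (log2 fold change 0.50, edgeR adjusted p = 0.508). Il6st, which encodes gp130, had 51.1 and 62.4 CPM in Mut-labelled and 53.2 and 59.1 CPM in WT mRNA libraries, so that the groups overlapped (log2 fold change 0.02, 95% interval -0.36 to 0.40, edgeR adjusted p = 0.984). It had 82.4 and 60.8 CPM in Mut-labelled and 58.2 and 51.2 CPM in WT total RNA libraries (log2 fold change 0.38, edgeR adjusted p = 0.527).

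The ratio of Il6ra to Il6st per kilobase was 0.779 and 0.750 in Mut-labelled and 0.455 and 0.490 in WT mRNA libraries. Total RNA libraries gave 0.425 and 0.733 in Mut-labelled and 0.379 and 0.676 in WT libraries, and the groups overlapped. The separation seen in mRNA libraries was thus not present in total RNA libraries.

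Counted over all 9 genes, both Mut-labelled values lay above both WT values for 6 in mRNA libraries (Csf2rb, Csf2rb2, Csf3r, Csf1r, Il3ra and Il6ra) and below them for none. Among all genes tested there, 21.4% were above and 23.1% below in that sense. Likewise 6 genes were above in total RNA libraries (Csf2rb, Csf2rb2, Csf3r, Csf1r, Il6ra and Il6st), with none below, against 22.5% and 21.4% of all genes tested. Receptor transcripts of the 9 genes together made up 0.0953 and 0.115% of gene counts in Mut-labelled mRNA libraries and 0.0539 and 0.0567% in WT mRNA libraries.

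**Figure D3:**
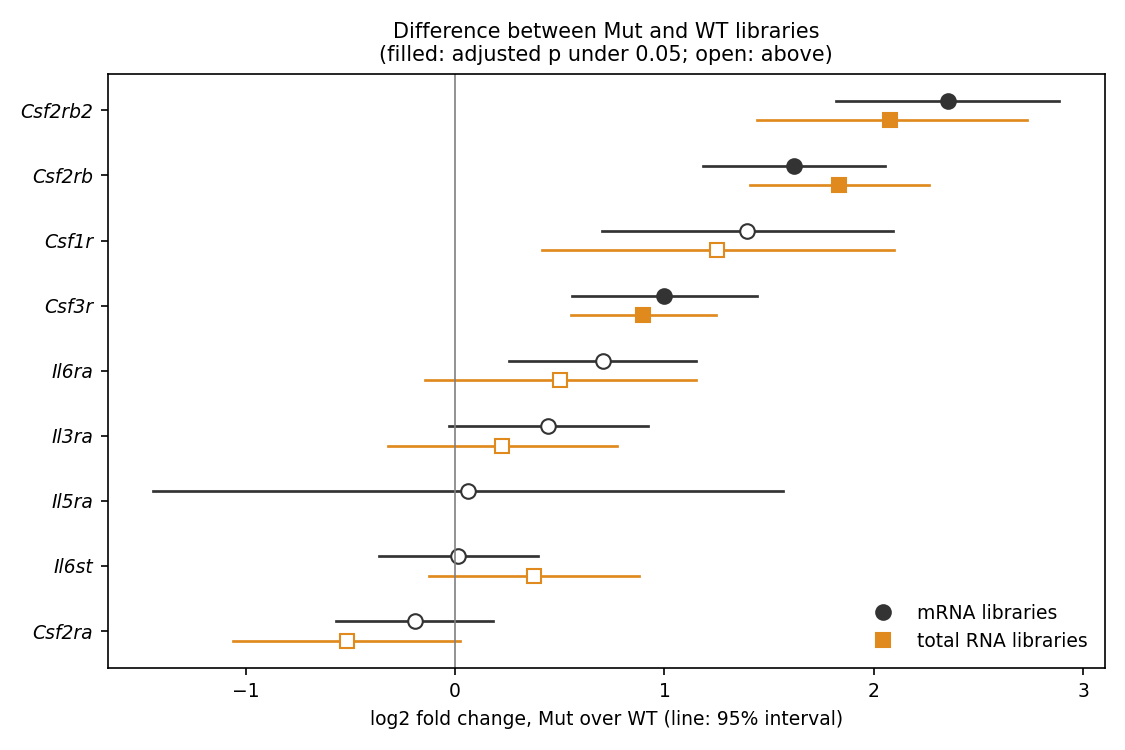
Log2 fold change of Mut-labelled over WT libraries for each receptor gene (x axis; lines are 95% intervals), in mRNA libraries (black circles) and total RNA libraries (orange squares), with filled points for genes called at an adjusted p under 0.05. Csf2rb2 and Csf2rb lay at 2.35 and 1.62 in mRNA libraries and at 2.08 and 1.84 in total RNA libraries under TMM scaling, while under ERCC scaling they were 1.97 and 1.28, and 1.03 and 0.77, with no gene called.

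An interaction term over the 8 libraries tested whether the group difference varied with the kind of library. No gene was called by edgeR (0.00% of 17416 genes, 686 at an unadjusted p below 0.05), and DESeq2 called 18 genes, none of them a receptor gene described here. This fit does not link the mRNA and total RNA library of 1 sorted sample. With the sorted sample as a block edgeR called 111 genes (4 higher and 107 lower), of which 0 were receptor genes described here. For 8 of the receptor genes the interaction lay between -0.28 and 0.41 on the log2 scale (edgeR adjusted p = 0.9999 for each). Over both groups, 7.49% of genes were higher and 7.64% lower in total RNA than in mRNA libraries. Of the receptor genes, Csf3r was lower in total RNA libraries by edgeR, with a log2 fold change of -0.42 (SE 0.12, adjusted p = 0.0384), and Il6st had a log2 fold change of 0.31 (SE 0.14, adjusted p = 0.160). The Csf3r call was lost under DESeq2 size factors (-0.34, edgeR adjusted p = 0.0807) and without any 1 of the 4 sorted samples.

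Levels of different genes are compared here per kilobase of the longest coding transcript. In Mut-labelled mRNA libraries the order by mean CPM per kilobase was Csf3r (102), Csf2rb (55.7), Csf2ra (45.8), Il3ra (35.8), Csf2rb2 (27.1), Csf1r (8.53), Il6st (6.54), Il6ra (4.99) and Il5ra (0.245). Neighbours whose libraries overlapped were Csf2rb with Csf2ra, and Csf1r with Il6st. In WT mRNA libraries the order was Csf2ra (52.3), Csf3r (50.8), Il3ra (26.3), Csf2rb (18.1), Il6st (6.47), Csf2rb2 (5.31), Csf1r (3.24), Il6ra (3.06) and Il5ra (0.235). The overlapping neighbours there were Csf2ra with Csf3r, Il6st with Csf2rb2, and Csf1r with Il6ra. Csf2rb ranked 2 in Mut-labelled and 4 in WT libraries, and Csf2ra ranked 3 and 1. With the length of all exons in place of that of 1 transcript, each of the 3 overlapping WT pairs changed places, and no rank moved in Mut-labelled libraries.

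**Figure D4:**
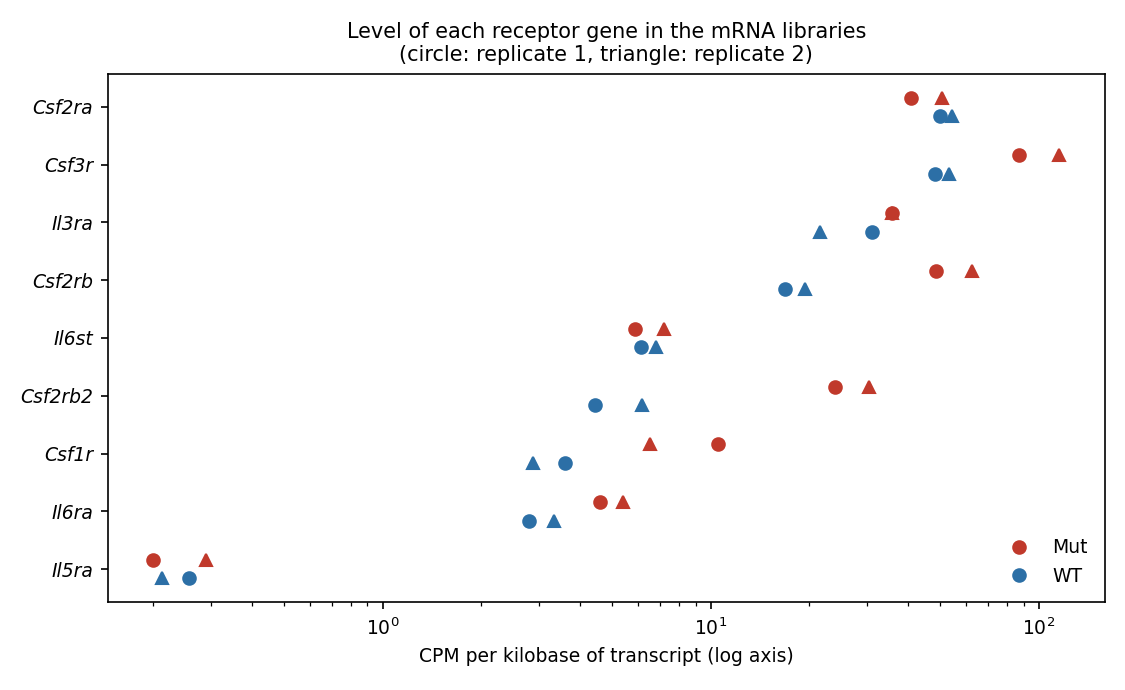
CPM per kilobase of transcript of each receptor gene in the mRNA libraries (log x axis), with Mut-labelled libraries in red above WT libraries in blue, circles for replicate 1 and triangles for replicate 2, ordered by the WT mean. Csf3r averaged 102 in Mut-labelled and 50.8 in WT libraries, and Il5ra lay below 0.3 in all 4 libraries.

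Of the other genes of the pathway, the ligands were mostly low. Of 13 ligand genes, 8 passed the filter in mRNA libraries, and Csf2, Csf3, Il3, Il5 and Il34 did not. Csf1, which encodes the ligand of Csf1r, rose, with 35.8 and 38.9 CPM in Mut-labelled and 15.1 and 18.4 CPM in WT mRNA libraries (log2 fold change 1.16, edgeR adjusted p = 0.0363). Osm, an IL-6 family ligand that signals through gp130, rose by 1.40 on the log2 scale, with 31.6 and 38.5 against 13.6 and 13.0 CPM (edgeR adjusted p = 0.0238). Clcf1, another gp130 ligand, stood at 31.9 and 44.6 against 33.2 and 41.7 CPM (log2 fold change 0.03). Ctf1, the gene of the gp130 ligand cardiotrophin-1, had 2.29 and 1.39 CPM in Mut-labelled and 7.53 and 4.89 CPM in WT mRNA libraries (log2 fold change -1.75, edgeR adjusted p = 0.0961), and DESeq2 called it lower. Of 4 ligand genes tested in total RNA libraries none was called by edgeR or DESeq2, with 2 at an unadjusted edgeR p below 0.05. Of all 10546 genes tested there, 1559 had such a p. In mRNA libraries edgeR called 1.75% of all 17128 genes tested higher and 1.89% lower.

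Among 20 other cytokine receptor genes, 2 rose and 2 fell in mRNA libraries by edgeR, and DESeq2 also called Flt3 and Epor lower. Of all 17128 genes tested, edgeR called 1.75% higher and 1.89% lower there, and DESeq2 called 751 higher and 864 lower. Il1rl1, the IL-33 receptor gene, had 138 and 189 CPM in Mut-labelled and 20.3 and 15.4 CPM in WT libraries (log2 fold change 3.19, edgeR adjusted p = 0.00566), and Il10rb, a chain of the IL-10 receptor, had 58.3 and 70.8 against 30.1 and 26.3 CPM (log2 fold change 1.20, edgeR adjusted p = 0.0250). Il1r1, the signalling receptor for IL-1, fell to 6.28 and 6.67 CPM in Mut-labelled libraries, against 40.2 and 39.4 CPM in WT (log2 fold change -2.62, edgeR adjusted p = 0.00566). Il18r1 had 0.457 and 0.0820 against 6.16 and 11.4 CPM (log2 fold change -5.02, edgeR adjusted p = 0.0327). Il10rb, Il1rl1 and Il1r1 were called in the same directions by edgeR in total RNA libraries, where DESeq2 did not call Il10rb and Il18r1 was not tested. Crlf2, the gene of the TSLP receptor, had 155 and 149 CPM in Mut-labelled and 148 and 124 CPM in WT mRNA libraries (log2 fold change 0.16, edgeR adjusted p = 0.717). Of 4 tested receptors that pair with gp130, none was called by edgeR or DESeq2 and none had an unadjusted edgeR p below 0.05 (Il11ra1 -0.23 and Il27ra -0.23).

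Downstream of the receptors, edgeR called none of the 11 JAK and STAT genes in mRNA libraries, and DESeq2 called Stat5b higher. Of the 11, 1 had an unadjusted edgeR p below 0.05, against 2682 of all 17128 genes tested. In total RNA libraries Jak3, a kinase of the common gamma chain receptors (427 and 601 CPM in Mut-labelled, 255 and 346 CPM in WT), and Stat5b, which the beta chain receptors activate (287 and 327 against 189 and 213 CPM), were called higher by edgeR (adjusted p = 0.0190 and 0.0325), and DESeq2 called Jak3 but not Stat5b there. Jak1, which with Jak3 had the highest mean CPM of this list, had a log2 fold change of 0.12 in mRNA libraries. Of 15 adaptor and kinase genes 1 was called higher by edgeR in mRNA libraries, the Src family kinase gene Lyn, with 110 and 108 CPM in Mut-labelled and 63.0 and 59.1 CPM in WT mRNA libraries (log2 fold change 0.84, edgeR adjusted p = 0.0255). DESeq2 called 5 of the 15 higher there (Lyn, Fes, Fgr, Syk and Pik3cd), against 751 of all 17128 genes tested. Pik3cd, a PI3 kinase subunit gene, was called by edgeR in total RNA libraries, at the edge of the threshold (edgeR adjusted p = 0.04997). The calls of Lyn and Pik3cd in total RNA libraries were absent under DESeq2 size factors and by DESeq2. Syk and Plcg2 had log2 fold changes of 0.48 and 0.39 in mRNA libraries (edgeR adjusted p = 0.171 and 0.246).

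Of 19 negative regulators, edgeR called none in mRNA libraries and 5 had an unadjusted p below 0.05, while DESeq2 called Socs1, Socs3 and Dok2 higher. Socs3, which binds gp130 and the G-CSF receptor and blocks their signal, had 107 and 218 CPM in Mut-labelled and 35.1 and 54.1 CPM in WT mRNA libraries (log2 fold change 1.87, edgeR adjusted p = 0.0666), and in total RNA libraries it had 75.0 and 155 against 18.1 and 44.3 CPM (log2 fold change 1.91, edgeR adjusted p = 0.0017), a call that DESeq2 did not make. The phosphatase genes Ptprc and Inpp5d had log2 fold changes of 0.31 and 0.05 in mRNA libraries. Of 16 genes that such cytokines induce, none was called higher by edgeR, with 5 of 16 at an unadjusted p below 0.05. Beside both lists, 2682 of all 17128 genes tested had an unadjusted edgeR p below 0.05 in mRNA libraries. Of the 16 genes DESeq2 called Bcl2l1 higher and Dusp6 and Ccnd2 lower. Ccnd2, a cyclin of the G1 phase, fell to 201 and 213 CPM in Mut-labelled mRNA libraries, against 363 and 397 CPM in WT (log2 fold change -0.88, edgeR adjusted p = 0.0316). Pim1, a kinase gene, had a log2 fold change of 0.60 (edgeR adjusted p = 0.307), and Fos differed widely within WT, with 825 and 1111 CPM in Mut-labelled and 221 and 884 CPM in WT libraries. Of 12 transcription factor genes known to act on receptor genes, Runx1 was the 1 called by edgeR, DESeq2 also called Cebpd and Cebpe higher, and Gata2 and Myb had log2 fold changes of 0.14 and -0.01.

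The median log2 fold change in mRNA libraries was 0.29 over ligands, 0.24 over other receptors, -0.23 over gp130 partners, 0.17 over JAK and STAT genes, 0.39 over adaptors and kinases, 0.08 over negative regulators, 0.21 over response genes and 0.13 over transcription factors, against -0.01 over all genes. Under ERCC scaling these medians became -0.04, -0.10, -0.62, -0.14, 0.04, -0.27, -0.16 and -0.28, with the receptor genes described here at 0.33 and all genes at -0.38.

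**Figure D5:**
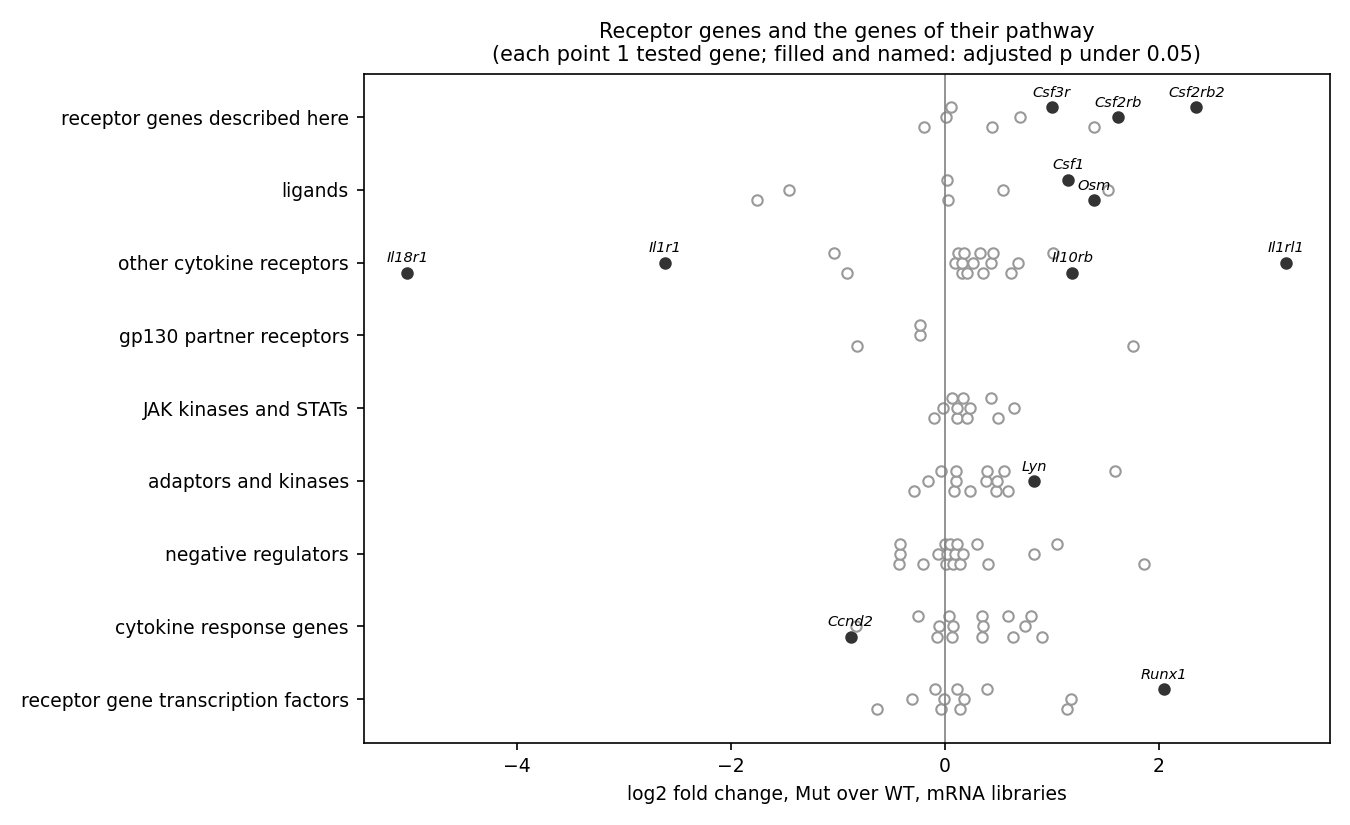
Log2 fold change of Mut-labelled over WT mRNA libraries (x axis) for the tested genes of the receptor set and of the 8 reported lists of its pathway, 1 point per gene, with filled and named points for genes called at an adjusted p under 0.05. The receptor genes Csf3r, Csf2rb and Csf2rb2 lay at 1.0 to 2.35 and the JAK and STAT genes at -0.10 to 0.65 under TMM scaling; under ERCC scaling the medians of most lists turned negative.

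Markers of mature cells that carry some of these receptors moved as well. All 10 neutrophil genes, of which none was at 0, stood higher in Mut-labelled mRNA libraries, with a median log2 fold change of 2.85, and edgeR called 2 of them (Cxcr2 and Retnlg) and DESeq2 all 10. Of all 17128 genes tested, edgeR called 1.75% higher there and DESeq2 751. The neutrophil genes went as follows. Summed over the 10 genes, their level was 529 and 167 CPM in Mut-labelled replicates 1 and 2 and 41.6 and 49.8 CPM in WT, and in total RNA libraries 267 and 118 against 30.6 and 33.5 CPM. All 6 that were tested in total RNA libraries were called by edgeR (Ltf, S100a8, S100a9, Lcn2, Mmp9 and Cxcr2) and DESeq2 called S100a8 and Cxcr2. Of all 10546 genes tested there edgeR called 2.55% higher. The filter asked for about 10 counts in 2 libraries, more than the WT sums allow for all 6 genes. Some of the 6 thus passed through their Mut-labelled values, and the count of 6 is partly set by the filter. S100a9, the highest of them by mean CPM, had 118 and 26.0 CPM in Mut-labelled and 6.72 and 8.42 CPM in WT mRNA libraries. The part of mature neutrophils in the rise of Csf3r and of the beta chains was not tested. Between the Mut-labelled samples the order differed: replicate 1 had more of the neutrophil transcripts, while replicate 2 had more Csf3r, Csf2rb and Csf2rb2 in both kinds of library. Without replicate 1, the log2 fold changes in mRNA libraries were 1.19 for Csf3r, 1.79 for Csf2rb and 2.51 for Csf2rb2. Replicate 2, which stays in that fit, also had more neutrophil transcripts than WT (167 against 41.6 and 49.8 CPM). With 2 Mut-labelled samples these orders cannot tell the part of neutrophils.

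Genes of monocytes and macrophages, the cells in which Csf1r is best known, summed to 271 and 148 CPM in Mut-labelled and 201 and 168 CPM in WT mRNA libraries. The groups overlapped, none of the 10 genes was at 0, and the median was -0.34. No gene of the list was called by edgeR, while DESeq2 called Cd14 higher and C1qa and Cx3cr1 lower. Of the 10 genes, 5 had an unadjusted edgeR p below 0.05, against 2682 of all 17128 genes tested. Lyz2 had 180 and 84.7 CPM in Mut-labelled and 114 and 95.2 CPM in WT libraries. The part of monocytes and macrophages in the Csf1r values was not tested. Genes of mast cells, basophils and eosinophils, which use IL-3 and IL-5, went both ways. Cpa3, a mast cell protease gene, had 455 and 513 CPM in Mut-labelled and 28.7 and 19.4 CPM in WT mRNA libraries, while the basophil protease genes Mcpt8 (2.31 and 1.64 against 19.4 and 17.4 CPM) and Prss34 (0.0286 and 0 against 68.8 and 44.3 CPM) and the eosinophil gene Prg2 (21.3 and 35.3 against 131 and 101 CPM) fell. Ms4a2, a chain of the IgE receptor, was called higher (edgeR adjusted p = 0.0026) and the eosinophil peroxidase gene Epx lower (edgeR adjusted p = 0.00223) without polyA selection. The summed level of the list was 658 and 862 CPM in Mut-labelled and 337 and 263 CPM in WT mRNA libraries, and 1 of the 10, Mcpt1, was at 0 in all of them. Cpa3 made up most of the sum in the Mut-labelled libraries. Of the 9 genes tested there 3 stood higher and 6 lower, with a median log2 fold change of -2.03. DESeq2 called Cpa3, Ms4a2 and Il1rl1 higher and Mcpt8, Prss34, Prg2, Epx, Fcer1a and Gzmb lower. Of all 17128 genes tested in mRNA libraries it called 751 higher and 864 lower, and edgeR called 1.75% higher and 1.89% lower. The part of these cells in the receptor values was not tested.

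Of the remaining cell type lists, megakaryocyte genes summed to 1617 and 1531 CPM in Mut-labelled and 441 and 391 CPM in WT mRNA libraries (Itga2b and Treml1 rose), and erythroid genes to 70.1 and 36.8 against 375 and 252 CPM (Klf1 and Car1 fell). Of 6 megakaryocyte genes tested there 5 stood higher and 1 lower (median log2 fold change 1.23). In total RNA libraries 3 of 5 tested stood higher and 2 lower. All 5 erythroid genes tested in mRNA libraries stood lower (median -1.67). Genes named here as rising or falling were called by edgeR, which called 1.75% of all 17128 genes tested higher and 1.89% lower. B cell genes summed in mRNA libraries to 38.7 and 31.0 against 31.6 and 47.3 CPM, T and NK cell genes to 13.6 and 13.1 against 31.7 and 32.3 CPM (Lck fell), and stromal and endothelial genes to 200 and 163 against 193 and 153 CPM (Kdr rose). The T and NK cell genes went both ways, with 3 of 6 tested higher and 3 lower (median log2 fold change 0.39). Of the 6 stromal and endothelial genes 2 stood higher and 4 lower (median -0.70). The collagen gene Col1a1 of that last list had 54.1 and 1.5 CPM in Mut-labelled and 53.9 and 45.1 CPM in WT libraries, so that Mut-labelled replicate 2 had little of it.

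Over the 4 mRNA libraries, the pattern most like that of Csf2rb2, the receptor gene with the smallest p there, was looked for among 10372 genes with a mean of at least 10 CPM. The measure was the root mean square distance between log2 CPM values centred on their mean. The nearest were Clec4e (0.0711), a C-type lectin receptor gene of myeloid cells, Synpo2 (0.0874), an actin-binding protein gene, and Fcgr2b (0.100), the inhibitory IgG receptor gene. Clec4e had 82.6 and 110 CPM in Mut-labelled and 17.2 and 21.1 CPM in WT libraries. Since 4 libraries in 2 groups give little room for distinct patterns, this likeness is a description only.

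Promoter windows of 250 bases upstream of the annotated start were read from RefSeq (GRCm38.p6) for 7 of the 9 genes, Csf2rb and Csf1r having no window used here. They are shown for both called genes with a window and for Il6ra, which held the most motif matches. The windows lie at chr15:78305722-78305971 (minus strand) for Csf2rb2, at chr4:126024409-126024658 (plus strand) for Csf3r and at chr3:89913197-89913446 (minus strand) for Il6ra. Capitals mark matches to the motifs searched, on either strand.
Csf2rb2: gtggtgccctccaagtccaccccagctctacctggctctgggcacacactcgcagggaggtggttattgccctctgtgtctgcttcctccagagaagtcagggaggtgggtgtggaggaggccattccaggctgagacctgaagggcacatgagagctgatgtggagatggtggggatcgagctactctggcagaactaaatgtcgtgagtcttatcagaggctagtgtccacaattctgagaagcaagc
Csf3r: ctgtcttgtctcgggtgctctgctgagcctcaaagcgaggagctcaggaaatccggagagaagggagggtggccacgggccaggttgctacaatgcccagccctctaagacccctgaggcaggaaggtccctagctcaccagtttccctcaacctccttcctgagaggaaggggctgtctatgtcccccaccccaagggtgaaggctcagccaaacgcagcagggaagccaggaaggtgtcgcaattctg
Il6ra: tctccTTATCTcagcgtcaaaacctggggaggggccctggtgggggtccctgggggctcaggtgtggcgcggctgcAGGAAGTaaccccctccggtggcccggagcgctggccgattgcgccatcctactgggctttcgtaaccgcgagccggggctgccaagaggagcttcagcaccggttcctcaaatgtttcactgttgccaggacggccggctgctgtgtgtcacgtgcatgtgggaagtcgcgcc
The motifs were TGTGGT and TGCGGT for RUNX factors, AGGAAGT for PU.1, TTGCAAT for C/EBP factors and AGATAA for GATA factors, each on both strands. In the Il6ra window AGGAAGT occurred at -174 to -168 and AGATAA, on the opposite strand, at -245 to -240, counted back from the start. Il3ra held AGGAAGT at -140 to -134 and Il5ra held AGATAA at -74 to -69. For Il3ra, unlike the other windows, the first bases after the start were not found in an annotated transcript of the gene. Its position is therefore less certain. No RUNX or C/EBP motif as spelled here occurred in the 7 windows, and Csf2rb2, Csf3r, Csf2ra and Il6st held no match at all. Among all 32851 RefSeq windows of that length, 18.6% held either RUNX motif, 7.69% AGGAAGT, 9.99% AGATAA and 1.96% TTGCAAT. These letters describe the windows and say nothing of binding.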

How the data were processed

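The deposited table held raw counts per gene and library, not normalised by the authors, in 38086 entries, of which 37991 were genes, 92 ERCC transcripts and 3 rRNA species. The submitters' processing notes name mm9, TopHat, featureCounts and edgeR, without versions or roles. The sources used here do not give the annotation release, the use of strand or the counting of multiply mapped reads. Symbols were matched through GENCODE M21 names (32919 of 37991 genes), which also gave transcript lengths, and no coordinates of measured genes are given because the builds differ.

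Groups came from the genotype labels, with 2 libraries per group and kind. Library sizes held gene counts alone, without ERCC and rRNA. Gene counts per library were 35096252 to 37924699 (mRNA) and 967694 to 1218437 (total RNA), and the lower depth left 10546 genes to test against 17128. The comparison of Mut-labelled with WT libraries of 1 kind used edgeR 4.0.16 and R 4.3.3 (TMM, its own filter on low counts with a minimum of 10, quasi-likelihood test, two-sided, no replicate block), with Benjamini-Hochberg adjustment over all genes and calls at an adjusted p under 0.05. All 8 libraries entered 1 fit for the interaction with the kind of library and for the mean difference between kinds. The scripts were tested on simulated data. The labels do not state that the samples are from different animals, and p-values measure only how far these samples spread, which may be technical. Counting intervals cover counting error only.

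Same-named mRNA and total RNA libraries were read as 1 sorted sample. Their replicate differences correlated across 10509 genes, with r of 0.430 in Mut-labelled and 0.375 in WT samples.

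The receptor genes, the lists and the motifs were chosen with earlier results of these data known. Named are all 9 receptor genes, genes of each list called in either kind of library, the most abundant 2 of each list, and the 3 genes nearest in pattern to the receptor gene with the smallest p in mRNA libraries. In some lists only the names or the leading ones are given. One listed gene, Hbb-b1, was not found in the table. Some pathway genes, called ones included, are not reported here and were left out of the lists' counts and medians after their values were seen, without regard to them; the fits and adjusted p-values still cover every gene. Alternatives were DESeq2 size factors (RLE), ERCC scaling, DESeq2 1.42.0 (Wald test), no filter, a stricter filter (at least 1 CPM in mRNA or 10 CPM in total RNA libraries, in 2 libraries), a replicate block, each library left out, both beta chains summed, and, added after the data were seen, exon length in place of transcript length. Coding sequences were read from GENCODE M21 transcripts and promoter windows from RefSeq.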

Additional observations from a re-analysis of the deposited data

How the results depend on the processing

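In mRNA libraries 624 genes and 3 receptor genes were called with TMM scaling and edgeR. Under ERCC scaling there were 170 calls (80 shared with the 624) and 0 receptor genes, by DESeq2 1615 and 5 (Csf1r and Il6ra added), and with the replicate block 2870 and 6 (Csf1r, Il3ra and Il6ra added, at edgeR adjusted p = 5.2e-05, 0.0122 and 0.00239). Leaving out 1 library gave 564 to 946 calls, the most without Mut-labelled replicate 1. In total RNA libraries 446 genes were called, against 203 by DESeq2, 724 without a filter and 870 with the replicate block, which added Csf1r (edgeR adjusted p = 0.0226). ERCC scaling left 0 receptor genes called there, and leaving out 1 library gave 0 to 1 receptor genes lower (Csf2ra, without WT replicate 1), and Csf1r was called without Mut-labelled replicate 1 (edgeR adjusted p = 0.0362). The differences between replicates 1 and 2 correlated between the groups with r of 0.323 in mRNA and 0.221 in total RNA libraries, but with 2 pairs the numbers are not shown to pair Mut-labelled with WT samples. The interaction gave 0 calls, against 111 with the replicate block of the sorted sample, 18 by DESeq2 and 0 to 1 with 1 sample left out. Between kinds of library 2634 genes were called, against 4895 with that replicate block and 518 to 1231 with 1 sample left out, and the 1 receptor gene called lower, Csf3r, was no longer called with any 1 sample left out (0 called each time) or under DESeq2 size factors (0 called).

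Directions turned as follows. Under ERCC scaling Il5ra and Il6st became -0.17 and -0.33 in mRNA libraries, and Csf3r, Il3ra, Il6ra and Il6st became -0.20, -0.94, -0.61 and -0.67 in total RNA libraries. For Csf2ra between kinds of library, DESeq2 size factors gave 0.0326 and DESeq2 gave 0.0325. With 1 library left out, the range was -0.22 to 0.31 for Il5ra and -0.13 to 0.15 for Il6st in mRNA libraries, and -0.92 to 0.0346 for Csf2ra in total RNA libraries. With 1 sample left out, the interaction ranged from -0.71 to 0.12 for Csf2ra, -0.0277 to 0.44 for Csf2rb, -0.54 to 0.0776 for Csf2rb2, -0.18 to 0.0022 for Csf3r, -0.86 to 0.56 for Csf1r and -0.30 to 9.27 for Il5ra, whose 3 total RNA counts allow no estimate. The difference between kinds ranged from -0.29 to 0.12 for Csf2ra and -0.52 to 0.15 for Csf1r. Apart from ERCC scaling, the direction and the calls of Csf2rb and Csf2rb2 in both kinds of library held under every alternative run that tested the gene. The cause of these changes was not tested, and a lone library left in a group is assumed to vary like the others.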
